A study of Mus musculus with 8 samples.

Results

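The 10 genes described here carry out or control bile acid synthesis in the liver: Cyp7a1, Cyp8b1, Akr1d1, Cyp27a1, Cyp7b1, Cyp2c70, Slc27a5, Baat, Nr1h4 and Nr0b2. They were taken by name for their known roles and by no rule on their values, though earlier results of these data were known. Each was found among the 40838 gene rows of the deposited count table. All 10 passed the filter on low counts that left 17438 genes for testing. Whole liver RNA was sequenced from 4 samples of mice given AAV-TBG-Lpcat3 and 4 of mice given AAV-TBG-eGFP, the control. Both groups were C57BL/6 mice, an inbred laboratory strain, with no other allele given in the labels. Both ate a NASH diet, which induces fatty liver with inflammation, for 7 weeks before the virus and 9 weeks after it, 16 weeks in all. The adeno-associated virus drives its cargo from the TBG promoter, which is active in hepatocytes, so the other liver cells were not meant to carry extra Lpcat3. Lpcat3 encodes an acyltransferase that places polyunsaturated fatty acids into membrane phospholipids. Nothing in the labels gives the mice's age or sex, or says whether each sample was a mouse of its own. A p-value here therefore reflects the spread among 8 samples that may not be independent animals.

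Hepatocytes turn cholesterol into bile acids by a pair of routes. In the classic route Cyp7a1 adds the first hydroxyl group and sets the pace, Akr1d1 reduces the sterol ring, and Cyp8b1 decides how much cholic acid is formed. In the alternative route Cyp27a1 oxidises the side chain first and Cyp7b1 follows. Cyp2c70 makes the muricholic acids that are typical of mice, and Slc27a5 and Baat then join bile acids to taurine. Bile acids bind the nuclear receptor FXR, the product of Nr1h4, which switches on Nr0b2. The Nr0b2 product, SHP, has no DNA-binding domain and represses Cyp7a1 and Cyp8b1 through receptors such as LRH-1 and HNF4A.

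The promoters of the repressor and of the gene for the cholic acid step are shown because these data hold the transcripts at both ends of that circuit. Each window, from RefSeq with the build GRCm38.p6, runs from 250 bases before to 50 bases after the gene start, 5′ to 3′ on the strand of the gene. The Nr0b2 window is chr4:133553126-133553425 on the plus strand, and the Cyp8b1 window is chr9:121916256-121916555 on the minus strand. Capitals mark a match to CAAGGNCA, a looser form of the LRH-1 type extended motif CAAGGTCA, which was chosen after the windows had been read.
Nr0b2 promoter: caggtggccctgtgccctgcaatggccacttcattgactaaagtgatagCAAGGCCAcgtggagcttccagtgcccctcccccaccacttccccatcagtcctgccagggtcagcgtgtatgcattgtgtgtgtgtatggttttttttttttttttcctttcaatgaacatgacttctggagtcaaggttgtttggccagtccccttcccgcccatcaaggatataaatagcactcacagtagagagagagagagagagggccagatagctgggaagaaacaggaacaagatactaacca
Cyp8b1 promoter: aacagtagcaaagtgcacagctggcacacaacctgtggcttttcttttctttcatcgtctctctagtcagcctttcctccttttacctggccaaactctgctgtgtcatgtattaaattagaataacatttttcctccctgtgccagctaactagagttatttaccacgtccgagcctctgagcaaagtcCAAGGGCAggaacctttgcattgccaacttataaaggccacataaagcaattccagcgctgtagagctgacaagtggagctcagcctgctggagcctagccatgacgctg

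The match begins 201 bases before the start of Nr0b2 and 60 bases before the start of Cyp8b1. Windows of 6 of the 10 genes were matched by symbol, those of Cyp8b1, Cyp27a1, Cyp2c70, Akr1d1, Nr0b2 and Nr1h4. The search covered both strands. Motifs overlap each other, since AGGTCA is part of CAAGGTCA and of both repeats, and CAAGGTCA is 1 form of CAAGGNCA. Of 32851 promoter windows of this length, 6.71% hold CAAGGNCA and 1.56% hold CAAGGTCA. The core nuclear receptor motif AGGTCA stands in 16.3% of windows. It was found 74 bases before the start of Cyp2c70, 214 bases before Nr1h4, and at 232 and 210 bases before Akr1d1. The FXR type inverted repeat AGGTCANTGACCT is in 0.00913% of windows and the direct repeat AGGTCANAGGTCA in 0.0396%. None of the 6 windows held either repeat or CAAGGTCA, and the Cyp27a1 window held none of the 5 motifs, which says only that these letters are not in these windows.

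Several facts of the libraries touch the results. Library totals lay between 22433625 and 25651874 counts. Levels are given as CPM, counts brought to a common library total with TMM scaling, as mean ± SD over 4 libraries of a group. Lpcat3 itself was at 274 to 465 CPM in Lpcat3 livers, against 133 to 173 CPM in eGFP livers, a log2 fold change of 1.25 (SE 0.17) with an adjusted p of 0.164 in edgeR's quasi-likelihood test and of 9.77e-09 in DESeq2. Along the first principal component, with 40.9% of the variance, Lpcat3 library 3 lay at one end and eGFP library 3 at the other. Both are therefore left out in a second set of values below. Sample titles hold a code with 1 of 4 numbers, 1290, 1317, 1344 or 1345, and no label explains it. Of the libraries coded 1290 or 1317, 1 is Lpcat3 and 3 are eGFP. Of those coded 1344 or 1345, 3 are Lpcat3 and 1 is eGFP, so code and group are partly tied, and differences within these code pairs are given beside the pooled ones.

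None of the 10 genes passed the test across all genes in edgeR at an adjusted p of 0.05, nor in DESeq2 or limma-voom. In edgeR 0.00573% of all genes tested passed, which is 1 of 17438. At an unadjusted p under 0.05 there were 4, with Cyp7a1, Cyp7b1 and Nr1h4 higher and Nr0b2 lower in Lpcat3 livers, while 8.48% of all genes tested reached that level. The groups did not overlap for 1 of the 10, Nr1h4, against 4.16% of all genes tested. On average 9 of the 10 were higher in Lpcat3 livers, with a median log2 fold change of 0.23, where 48.5% of all genes tested were higher and their median was -0.01. The repressor gene Nr0b2 was the only one of the 10 with a lower mean.

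**Figure D1:**
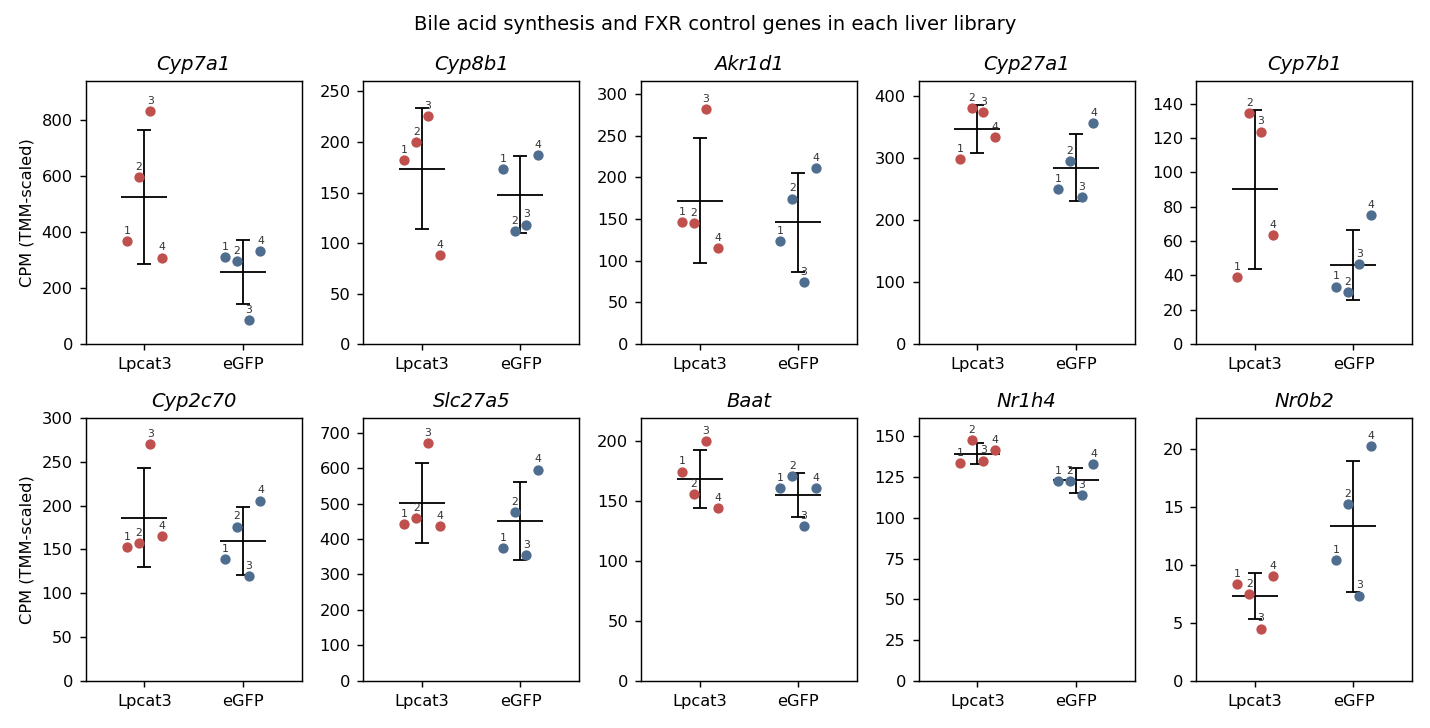
CPM of each of the 10 genes in every library, with Lpcat3 livers left and eGFP livers right; points are libraries with their replicate number, horizontal lines are means and bars are SDs over 4 libraries. The groups overlap in every panel but Nr1h4, and the highest Cyp7a1 point, 831 CPM, is Lpcat3 library 3 while the lowest, 86.6 CPM, is eGFP library 3.

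Cyp7a1 (NCBI gene 13122), the rate-limiting enzyme of the classic route, was at 368, 594.5, 831 and 308 CPM in Lpcat3 livers 1 to 4, against 311, 297, 86.6 and 332 CPM in eGFP livers 1 to 4. Of the 4 Lpcat3 libraries, 3 were above every eGFP library and the fourth lay among them. The means were 525 ± 238 CPM in Lpcat3 livers and 257 ± 114 CPM in eGFP livers, a 2.05-fold difference. The log2 fold change was 1.03 (SE 0.44, edgeR p = 0.0417, adjusted p = 0.582), and the exact permutation test of the means, two-sided, gave p = 0.0857. Without both libraries numbered 3 the log2 fold change was 0.43 (SE 0.23). Within codes 1290 and 1317 the log2 difference was 0.88, within codes 1344 and 1345 it was 0.68, and without Lpcat3 library 3 the second of these was 0.37. Within the single codes that hold both groups the difference was 0.27 for 1290 and -0.11 for 1345. A fit with the 4 code numbers as covariates gave 0.11. Cyp7a1 was the most variable of the 10 among eGFP livers and the second most variable among Lpcat3 livers. Its SD of log2 CPM stood at the 94.34th percentile of all genes in Lpcat3 livers and at the 98.55th in eGFP livers.

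Cyp8b1 (NCBI gene 13124), the step towards cholic acid, was at 182, 199.9, 225 and 87.9 CPM in Lpcat3 livers and at 173, 112, 118 and 187 CPM in eGFP livers. Lpcat3 library 4 was the lowest of all 8, library 1 lay inside the eGFP range and libraries 2 and 3 lay above it. For this gene the log2 fold change was 0.23 (SE 0.28, adjusted p = 0.801 by edgeR). It was -0.01 without both libraries numbered 3, 0.46 within codes 1290 and 1317 and -0.24 within codes 1344 and 1345.

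Akr1d1 (NCBI gene 208665), the reductase that bends the sterol ring into its bile acid shape, was at 146, 145.5, 282 and 115 CPM in Lpcat3 livers and at 124, 174.5, 74.7 and 211 CPM in eGFP livers. Only Lpcat3 library 3 exceeded the eGFP range. The log2 fold change was 0.24 (SE 0.35, adjusted p = 0.839 by edgeR), and without both libraries numbered 3 it was -0.32. Across the classic route the 3 enzymes thus differed in size of the group difference, from 2.05-fold for Cyp7a1 to 1.18-fold for Cyp8b1 in the ratio of means, and none passed the test.

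In the alternative route, Cyp27a1 (NCBI gene 104086), the mitochondrial side-chain hydroxylase, was at 298, 381, 374 and 334 CPM in Lpcat3 livers, against 250.2, 296, 237 and 357 CPM in eGFP livers. The means were 347 ± 38.5 CPM in Lpcat3 livers and 285 ± 54.3 CPM in eGFP livers, with 2 Lpcat3 libraries above every eGFP library. Its log2 fold change was 0.28 (SE 0.14, adjusted p = 0.606 by edgeR). It was 0.20 within codes 1290 and 1317 and 0.02 within codes 1344 and 1345.

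Cyp7b1 (NCBI gene 13123), the oxysterol hydroxylase that follows Cyp27a1, was at 39.3, 134, 124 and 63.4 CPM in Lpcat3 livers, against 33.5, 30.3, 46.5 and 74.9 CPM in eGFP livers. Lpcat3 libraries 2 and 3 stood above the rest, and Lpcat3 libraries 1 and 4 lay inside the eGFP range. The means were 90.1 ± 46.1 CPM in Lpcat3 livers and 46.3 ± 20.3 CPM in eGFP livers, a 1.95-fold difference with a log2 fold change of 0.96 (SE 0.42, adjusted p = 0.587 by edgeR). Both high libraries carry the code 1344, which no eGFP library has. Its log2 difference was 0.44 within codes 1344 and 1345, 0.12 within codes 1290 and 1317, and 0.31 in a fit with a term for the code division. Code 1290 alone gave 0.30, code 1345 alone -0.24, and a fit with the 4 code numbers as covariates 0.06. Its SD of log2 CPM among Lpcat3 livers was at the 97.5th percentile of all genes, the highest of the 10.

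Cyp2c70 (NCBI gene 226105), the muricholic acid enzyme of mice, was at 153, 157, 270.4 and 165 CPM in Lpcat3 livers and at 138.5, 176, 119 and 206 CPM in eGFP livers. Lpcat3 library 3 alone lay above the eGFP range. The log2 fold change was 0.22 (SE 0.22, adjusted p = 0.764 by edgeR) with all libraries and -0.13 without both numbered 3.

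The conjugation genes had the smallest log2 fold changes among the enzymes in the fit of all 8 libraries, though not without both libraries numbered 3, where Cyp8b1 had, nor with a term for the code division, where Akr1d1 had. Slc27a5 (NCBI gene 26459), which activates bile acids with coenzyme A, was at 441, 459.7, 670.3 and 436 CPM in Lpcat3 livers and at 375, 476, 355 and 596 CPM in eGFP livers. Baat (NCBI gene 12012), which then adds the amino acid, was at 174.5, 156, 199.6 and 144 CPM in Lpcat3 livers and at 161, 171, 129 and 160.4 CPM in eGFP livers. The log2 fold changes were 0.16 (SE 0.20) for Slc27a5 and 0.12 (SE 0.12) for Baat, with edgeR adjusted p of 0.811 and 0.765. Scaling by library totals alone put Baat at -0.0019 and moved the median of all genes to -0.13. Without both libraries numbered 3 both genes were below 0, at -0.11 and -0.05.

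**Figure D2:**
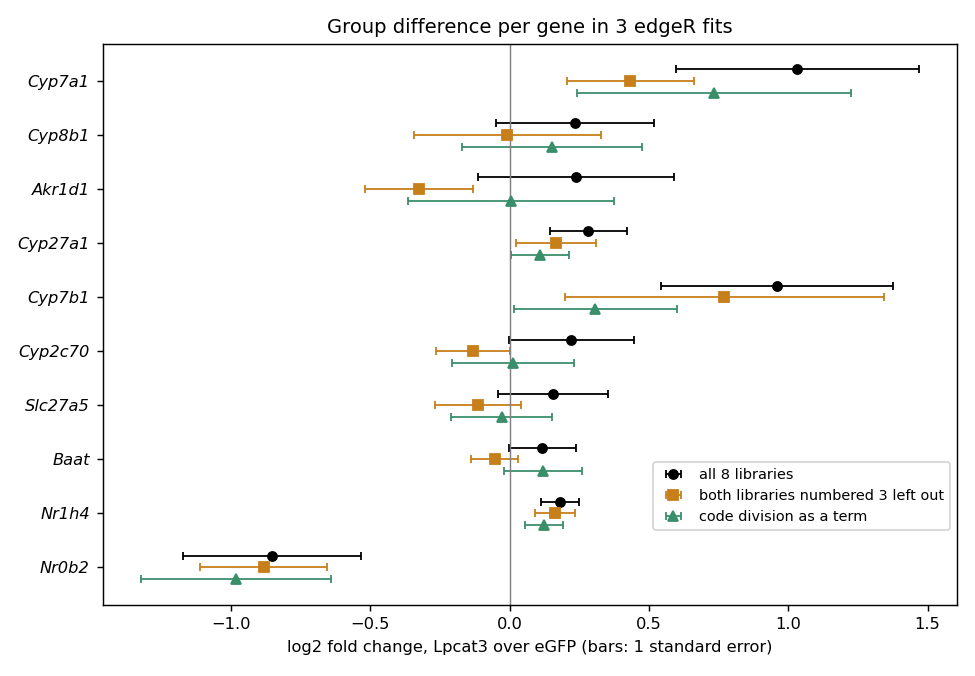
Log2 fold change of Lpcat3 over eGFP livers per gene on the horizontal axis, with 1 standard error, in 3 edgeR fits: all 8 libraries, both libraries numbered 3 left out, and the code division as a term. Nr0b2 lies between -0.85 and -0.98 in all 3 fits, while Akr1d1 is at 0.24 with all libraries and -0.32 without both numbered 3.

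Nr1h4 (NCBI gene 20186), the gene of the bile acid receptor FXR, was at 133, 148, 135 and 141.5 CPM in Lpcat3 livers, against 123, 122.5, 114 and 133 CPM in eGFP livers. Every Lpcat3 library was above every eGFP library, but the nearest of them, at 133.4 and 132.8 CPM, were less than 1 CPM apart. The means were 139.5 ± 6.55 CPM in Lpcat3 livers and 123 ± 7.62 CPM in eGFP livers, a 1.13-fold difference. The log2 fold change was 0.18 (SE 0.07, edgeR p = 0.0259, adjusted p = 0.576), and the exact permutation test gave p = 0.0286, the smallest that 4 against 4 allows. The separation was lost with library totals alone, where Lpcat3 library 3 was the lowest of all 8 at 119 CPM and the groups overlapped. The log2 fold change was then 0.06, while the median of all genes moved to -0.13. RLE and upper quartile scaling gave log2 fold changes of 0.19 and 0.18. Nr1h4 was the steadiest of the 10, its SD of log2 CPM standing at the 11.49th percentile of all genes in Lpcat3 livers and the 15.02nd in eGFP livers.

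Nr0b2 (NCBI gene 23957), the gene of the repressor SHP and a direct target of FXR, was at 8.35, 7.51, 4.51 and 9.03 CPM in Lpcat3 livers, against 10.4, 15.3, 7.35 and 20.2 CPM in eGFP livers. These levels rest on 194, 170, 94 and 227 counts in Lpcat3 livers and 266, 374, 198 and 490 counts in eGFP livers. Of the 4 eGFP libraries, 3 lay above every Lpcat3 library, and eGFP library 3 lay among the Lpcat3 libraries. The means were 7.35 ± 1.99 CPM in Lpcat3 livers and 13.3 ± 5.64 CPM in eGFP livers. The log2 fold change was -0.85 (SE 0.32, edgeR p = 0.0252, adjusted p = 0.573; DESeq2 adjusted p = 0.317), and the exact permutation test gave p = 0.114. Over the 20 other settings its log2 fold change ran from -1.06 to -0.58, with adjusted p of 0.317 or more. It was -0.88 (SE 0.23) without both libraries numbered 3, -0.34 within codes 1290 and 1317 and -1.58 within codes 1344 and 1345, where the eGFP side is eGFP library 4 alone. Nr0b2 and Nr1h4 thus had means on opposite sides, and neither difference passed the test.

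Ratios between genes of the same library do not depend on how libraries are scaled, so 5 were compared by two-sided exact permutation tests with adjustment over the 5. Nr0b2 counts per Nr1h4 count were 0.0627, 0.0510, 0.0335 and 0.0640 in Lpcat3 livers, against 0.0854, 0.125, 0.0645 and 0.153 in eGFP livers. All 4 Lpcat3 values were below all 4 eGFP values, with the nearest 2 at 0.0640 and 0.0645. The mean log2 ratio was -4.29 ± 0.43 in Lpcat3 livers and -3.31 ± 0.56 in eGFP livers, a difference of -0.98 (exact p = 0.0286, the smallest possible, adjusted p = 0.143). The difference was -0.49 within codes 1290 and 1317 and -1.67 within codes 1344 and 1345.

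Cyp8b1 counts per Cyp7a1 count were 0.494, 0.336, 0.271 and 0.285 in Lpcat3 livers, against 0.557, 0.377, 1.37 and 0.563 in eGFP livers. This ratio sets the cholic acid step against the entry step of the classic route. The groups overlapped at eGFP library 2, and eGFP library 3 was the only one with more Cyp8b1 than Cyp7a1 counts. The mean log2 ratio was -1.57 ± 0.39 in Lpcat3 livers and -0.66 ± 0.79 in eGFP livers, a difference of -0.91 (exact p = 0.0571, adjusted p = 0.143). Without eGFP library 3 the difference was -0.54 (exact p = 0.114). With all 8 libraries, the difference was -0.42 within codes 1290 and 1317 and -0.93 within codes 1344 and 1345. The first of these includes eGFP library 3, the only library coded 1317. Within code 1290 alone, Lpcat3 library 1, at 0.494, lay between eGFP libraries 1 and 2, at 0.557 and 0.377. Within code 1345, Lpcat3 library 4, at 0.285, was below eGFP library 4, at 0.563.

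The ratio of the entry genes of the alternative and classic routes, Cyp27a1 over Cyp7a1, was -0.50 ± 0.54 in Lpcat3 livers and 0.31 ± 0.78 in eGFP livers as a mean log2 ratio, a difference of -0.80 (exact p = 0.20, adjusted p = 0.333). Without eGFP library 3 it was -0.42. The log2 ratio of Cyp7b1 to Cyp7a1 differed by -0.21 (exact p = 0.771) and that of Baat to Slc27a5 by -0.05 (exact p = 0.83). Within the code pairs the Baat to Slc27a5 difference was above 0, at 0.05 for codes 1290 and 1317 and 0.26 for codes 1344 and 1345. No ratio passed after adjustment.

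**Figure D3:**
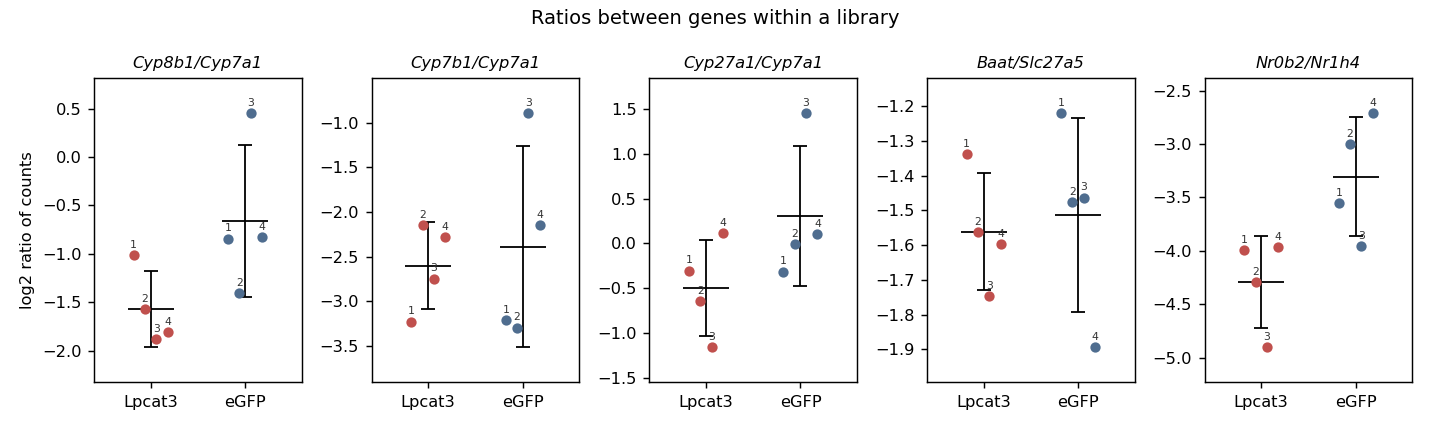
Log2 ratio of counts within each library for the 5 gene pairs, with Lpcat3 livers left and eGFP livers right; points are libraries, lines are means and bars SDs over 4 libraries. The groups separate only for Nr0b2 over Nr1h4, where the means are -4.29 and -3.31.

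Per kilobase of exon, the 10 genes spanned a wide range of levels over the 8 libraries. Slc27a5 was highest at 195 ± 43.8 CPM per kilobase, followed by Cyp27a1 at 145 ± 25.2 and Cyp7a1 at 93.7 ± 53.8. Cyp2c70 at 87.4 ± 23.6, Baat at 83.4 ± 10.9 and Cyp8b1 at 82.4 ± 24.9 came next. These 4 genes from Cyp7a1 to Cyp8b1 exchanged places from library to library, with Cyp7a1 above Cyp2c70 in 4, Cyp2c70 above Baat in 4 and Baat above Cyp8b1 in 3 of 8. Below them were Nr1h4 at 57.0 ± 4.77, Akr1d1 at 55.0 ± 22.1, Cyp7b1 at 31.5 ± 18.7 and Nr0b2 at 9.13 ± 4.47 CPM per kilobase. The ranges of all neighbours in this order overlapped, although Slc27a5 was above Cyp27a1, and Cyp7b1 above Nr0b2, in 8 of 8 libraries.

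Much of the spread lay between libraries rather than between groups. Lpcat3 library 3 had the highest level of 6 of the 8 enzyme genes, Cyp7a1, Cyp8b1, Akr1d1, Cyp2c70, Slc27a5 and Baat, and Lpcat3 library 2 that of Cyp27a1 and Cyp7b1. The eGFP library 3 had the lowest level of 6, Cyp7a1, Cyp27a1, Akr1d1, Cyp2c70, Slc27a5 and Baat. Summed over the 8 enzymes, levels were 1801, 2228, 2976 and 1654 CPM in Lpcat3 livers, against 1566, 1733, 1166 and 2124 CPM in eGFP livers. The eGFP library with the highest sum, library 4, exceeded 2 of the 4 Lpcat3 libraries. Without both libraries numbered 3, 4 of the 10 genes had a higher mean in Lpcat3 livers, namely Cyp7a1, Cyp27a1, Cyp7b1 and Nr1h4, and the median log2 fold change was -0.03. With the 4 code numbers as covariates these genes again had positive values, but small ones, at 0.11 for Cyp7a1, 0.03 for Cyp27a1, 0.06 for Cyp7b1 and 0.11 for Nr1h4, while Nr0b2 was at -0.86. Only codes 1290 and 1345 hold both groups. Within code 1345, Lpcat3 library 4 was below eGFP library 4 for all 8 enzymes, with log2 differences from -1.09 for Cyp8b1 to -0.10 for Cyp27a1. Within code 1290, Lpcat3 library 1 was above the mean of eGFP libraries 1 and 2 for 6 of the 8 enzymes, with log2 differences from -0.03 for Cyp2c70 to 0.38 for Cyp8b1. Nr0b2 was at -0.59 within code 1290 and -1.16 within code 1345, and Nr1h4 at 0.12 and 0.09. These are values of 1 Lpcat3 library each, with no test.

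**Figure D4:**
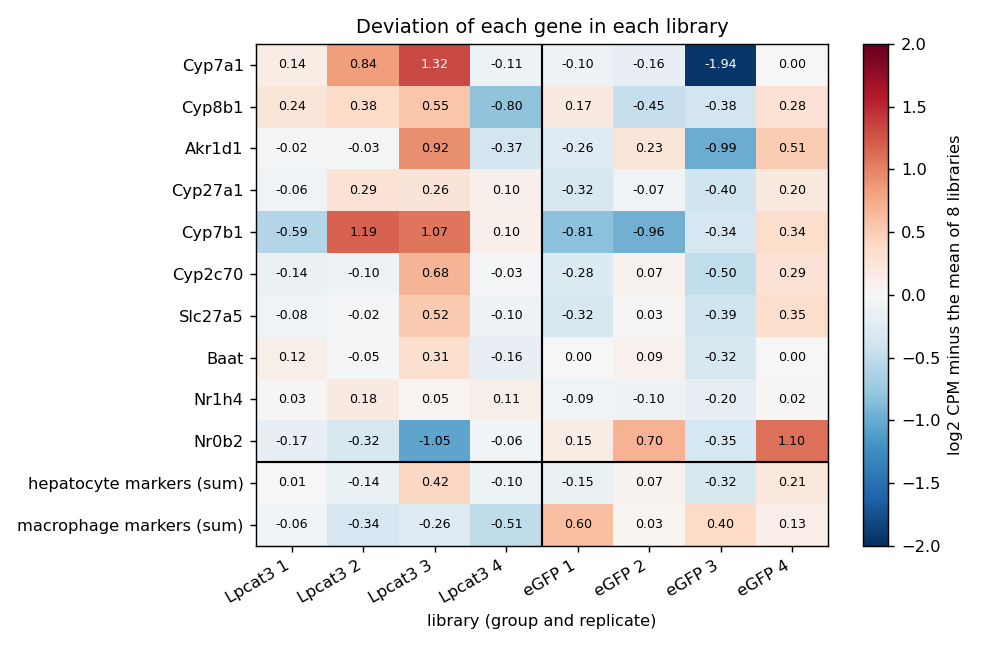
Log2 CPM of each gene in each library minus the gene's mean over 8 libraries, as coloured cells with their values, Lpcat3 libraries left and eGFP libraries right; the lower rows give the summed hepatocyte and macrophage markers. Lpcat3 library 3 is at 1.32 for Cyp7a1 and -1.05 for Nr0b2, and eGFP library 3 is at -1.94 for Cyp7a1 and -0.35 for Nr0b2.

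Summed markers of liver cell types also differed between libraries. The summed level of 8 hepatocyte markers, among them Alb and Ttr, was 74140, 67030, 98500 and 68650 CPM in Lpcat3 livers, against 66670, 77480, 59180 and 85180 CPM in eGFP livers. Its highest and lowest libraries, Lpcat3 library 3 and eGFP library 3, were also those of the enzyme sum. Alb was the largest part of the marker sum and had the same extremes, at 56980 and 28660 CPM. Apob, by contrast, stayed at 20810 to 22810 CPM over all 8 libraries. Of the 8 hepatocyte markers 7 had a higher mean in Lpcat3 livers, with a median log2 fold change of 0.15. The 9 macrophage markers summed to 232 to 317 CPM in Lpcat3 livers and 338 to 499.9 CPM in eGFP livers. Of the 9, 8 had a lower mean in Lpcat3 livers, 5 of them at an unadjusted p under 0.05, with a median log2 fold change of -0.57. The 8 stellate cell markers summed to 293 to 537 CPM in Lpcat3 livers and 450.5 to 554 CPM in eGFP livers. The low end was Lpcat3 library 3 alone, and the other 3 Lpcat3 livers, at 513 to 537 CPM, lay inside the eGFP range. In that library the collagen gene Col1a1 was at 13.1 CPM, against 65.7 to 82.9 CPM in the other Lpcat3 livers. The macrophage marker Gpnmb was at 1.06 CPM there, against 39.7 to 56.2 CPM in the others. Both genes were picked after their values were seen, and not all markers followed them. The macrophage marker Trem2 was low there too, at 0.34 CPM. Timd4, at 13.4 CPM, was at its highest of all 8 libraries there. Clec4f at 71.3 CPM and Vsig4 at 40.8 CPM were at their highest among Lpcat3 livers. The stellate marker Lrat, at 54.5 CPM, lay inside the range of the other Lpcat3 livers, 48.0 to 65.1 CPM. The 6 endothelial markers summed to 305 to 385 CPM in Lpcat3 livers and 384 to 422 CPM in eGFP livers. All 6 had a lower mean in Lpcat3 livers, 3 of them at an unadjusted p under 0.05, with a median log2 fold change of -0.26. The groups did not overlap for 1 of the 6, Cdh5. The 7 cholangiocyte markers were at 13.0 to 26.8 CPM in Lpcat3 livers and 12.9 to 19.8 CPM in eGFP livers. Of 6 tested, 5 had a higher mean in Lpcat3 livers, 2 of them, Krt7 and Epcam, at an unadjusted p under 0.05, with a median log2 fold change of 0.73. Krt7 rested on 10 to 55 counts per library. Sox9, the marker of this list with the highest level, was at a log2 fold change of -0.04, and Krt19 at 0.22. An unadjusted p under 0.05 was also reached by 1 hepatocyte marker, higher in Lpcat3 livers, and by no stellate, T and NK or B cell marker. Of all genes tested, 8.48% reached it in either direction, and for 4.16% the groups did not overlap. T and NK cell markers summed to 2.90 to 4.70 CPM in Lpcat3 livers and 2.04 to 7.39 CPM in eGFP livers, and B cell markers to 2.01 to 3.23 CPM in Lpcat3 livers and 2.45 to 3.81 CPM in eGFP livers. No marker was at 0 in every library, and no marker passed the edgeR test. In whole liver RNA, fewer cells of a type and less RNA per cell cannot be told apart, and the part of these markers in the differences of the bile acid genes was not tested.

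Relations between the regulator and its targets were looked at in 5 gene pairs over the 8 libraries, with exact permutation tests and adjustment over the 5. The repressor gene Nr0b2 and Cyp7a1 had a Pearson r of -0.25 (exact p = 0.554) and a Spearman rho of -0.33 (exact p = 0.428), both with adjusted p above 0.5. With the group means subtracted r was 0.24, and it was 0.14 without the 2 libraries farthest out. Nr0b2 with Cyp8b1 gave r = -0.24 (exact p = 0.560) and rho = -0.38 (exact p = 0.360), and r = -0.31 without the 2 farthest libraries. Neither relation was detectable over 8 libraries. In eGFP library 3 both Cyp7a1, at 86.6 CPM, and Nr0b2, at 7.35 CPM, were the lowest of their group.

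Nr1h4 with Nr0b2 gave r = -0.19 (exact p = 0.664) and rho = -0.26 (exact p = 0.536), with r = 0.71 after subtraction of the group means and 0.05 with library-total CPM. Without the 2 farthest libraries r was -0.39. Its direction thus depended on how it was computed.

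Cyp7a1 and Cyp8b1 followed each other by rank, with rho = 0.88 (exact p = 0.00724, adjusted p = 0.0362), while Pearson's r was 0.61 (exact p = 0.0960, adjusted p = 0.480). With the group means subtracted r was 0.63, and without the 2 farthest libraries, Lpcat3 library 3 and eGFP library 3, it was 0.57. Library-total CPM gave r = 0.47. Cyp7b1 with Cyp8b1 gave r = 0.48 (exact p = 0.219) and rho = 0.67 (exact p = 0.0831, adjusted p = 0.208), and r was -0.05 without Lpcat3 libraries 2 and 3, so that relation rested on them. The code pairs hold 4 libraries each, too few for a correlation within them, and these libraries also share the differences in hepatocyte markers given above.

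**Figure D5:**
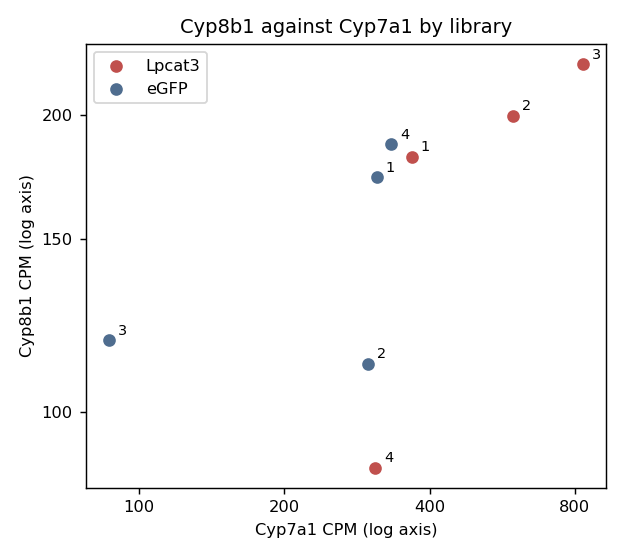
CPM of Cyp8b1 against CPM of Cyp7a1 in each of the 8 libraries, coloured by group and numbered by replicate. The rank correlation is 0.88, with eGFP library 3 at the left end at 86.6 CPM of Cyp7a1 and Lpcat3 library 3 at the right end at 831 CPM.

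By a rule on likeness, the genes outside the 10 that followed Cyp7a1 most closely over the 8 libraries, among 7946 searched, were Gopc (r = 0.98), Akr7a5 (r = 0.98) and Tsc22d3 (r = 0.97). Tsc22d3, a gene induced by glucocorticoids, averaged 44.7 ± 14.3 CPM in Lpcat3 livers and 23.7 ± 8.75 CPM in eGFP livers. Closest to Cyp8b1 were Rapgef6 (r = 0.95), Mtres1 (r = 0.95) and Trappc9 (r = 0.94). Closest to Nr0b2 were Suclg2 (r = 0.97), Aktip (r = 0.94) and Slc66a2 (r = 0.91). These values describe the best of many genes over few libraries and carry no test.

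Other enzymes of bile acid synthesis and modification were higher on average in 10 of 12 and lower in 2, with a median log2 fold change of 0.08, and 0 of 12 passed the edgeR test or had an unadjusted p under 0.05. Sult2a8, a bile acid sulfotransferase of mouse liver, was at 202, 504.2, 718 and 289 CPM in Lpcat3 livers, against 143, 176, 137 and 433 CPM in eGFP livers, a log2 fold change of 0.95 (SE 0.48, adjusted p = 0.615 by edgeR). It was 0.58 without Lpcat3 library 3 and 1.49 without eGFP library 4. As for Cyp7b1, libraries 2 and 3 were the highest Lpcat3 libraries and library 4 the highest of eGFP. Slc27a2, an acyl-CoA synthetase, was at a log2 fold change of 0.20, the racemase gene Amacr at 0.25, and the cholesterol hydroxylase gene Cyp46a1 at 0.35.

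Among 21 other regulators of Cyp7a1 and Cyp8b1, 15 were higher and 6 lower on average, with a median log2 fold change of 0.07. The list was not split into activators and repressors. None passed in edgeR. At an unadjusted p under 0.05, 2 of the 21 were higher, where 8.48% of all genes tested reached that level in either direction. The groups did not overlap for 1 of the 21, against 4.16% of all genes tested. That gene was Onecut1, which encodes the hepatocyte transcription factor HNF6. It was at 43.3, 84.3, 55.3 and 55.2 CPM in Lpcat3 livers, against 18.5, 14.8, 11.2 and 16.7 CPM in eGFP livers. Its log2 fold change was 1.96 (SE 0.22), with an adjusted p of 0.0752 in edgeR and 3.13e-14 in DESeq2, so its call depended on the test. Other regulators taken by the naming rule were Foxa2 at a log2 fold change of 0.42 (adjusted p = 0.587 by edgeR) and Ppargc1a at 0.52. Ppargc1a was at 0.22 without Lpcat3 library 3 and at 0.06 without both libraries numbered 3. LRH-1 and HNF4A, through which SHP acts, are encoded by Nr5a2 and Hnf4a. Nr5a2 averaged 86.2 ± 11.4 CPM in Lpcat3 livers and 86.1 ± 10.4 CPM in eGFP livers, and Hnf4a 453 ± 31.0 CPM in Lpcat3 livers and 439 ± 22.6 CPM in eGFP livers, differences within the spread between libraries. Both were added for their role after their values had been seen.

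Of 11 other FXR target genes, 10 were tested, with 5 higher and 5 lower on average, a median log2 fold change of -0.11, and 0 at an unadjusted p under 0.05. The list was not split by the direction in which FXR acts, so these counts give no direction for the pathway. Slc51a was not tested for low counts. Slc10a1, the bile acid uptake transporter that SHP represses in rodents, was at 310, 377, 476 and 267 CPM in Lpcat3 livers, against 219, 230, 152 and 367.5 CPM in eGFP livers. Its log2 fold change was 0.56 (SE 0.27, adjusted p = 0.601 by edgeR), and eGFP library 3 was again the lowest. Osgin1 was at a log2 fold change of -0.53, Vldlr at -0.37 and Apoc2 at -0.27. Leaving out 1 library moved each by over 1.5 times, with Osgin1 at -0.23 without eGFP library 3 and at -0.90 without Lpcat3 library 4, Vldlr at -0.17 without Lpcat3 library 3, and Apoc2 at -0.17 without Lpcat3 library 4. The bile salt export pump gene Abcb11, also chosen after its values were seen, averaged 598 ± 71.1 CPM in Lpcat3 livers and 593 ± 73.5 CPM in eGFP livers.

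Cytokine and acute phase genes, a group that includes known repressors of Cyp7a1, were lower on average in 7 of 7 tested, with a median log2 fold change of -0.42. None passed in edgeR, and Il6 was too low to test. An unadjusted p under 0.05 was reached by 3 of the 7, against 8.48% of all genes tested. Il1b, an inflammatory cytokine, was at 2.75, 1.46, 2.21 and 2.67 CPM in Lpcat3 livers, against 5.97, 3.23, 8.06 and 2.27 CPM in eGFP livers, a log2 fold change of -1.10 (SE 0.39, adjusted p = 0.566 by edgeR). The eGFP library 4 lay inside the Lpcat3 range, and without eGFP library 3 the log2 fold change was -0.75. Orm2, Saa1 and Hp, acute phase genes of hepatocytes, were at log2 fold changes of -0.42, -0.33 and -0.31. A fit that held the 4 codes put Il1b at -0.34, Hp at -0.13, Orm2 at -0.037 and Saa1 at 0.036. Within code 1345 the log2 differences were 0.22 for Il1b, 0.08 for Orm2, -0.004 for Saa1 and -0.25 for Hp. Within code 1290 they were -0.66 for Il1b, -0.12 for Orm2, 0.08 for Saa1 and -0.05 for Hp. Macrophage markers were lower on average in the same livers, as given above, and their part in these values was not tested.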

How the data were processed

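The authors deposited whole-number counts that had not been normalized, in 1 table of 8 libraries with rows named by NCBI gene number. Per the labels' protocols, ribosomal RNA was removed and stranded libraries were read from one end. Per the submitters' processing notes, bcl2fastq 2.20, DESeq2 and the build GRCm39 were used. No source used here names the aligner, the counter or the use of strand, so reads of overlapping or antisense genes cannot be told apart.

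Symbols came from a RefSeq table of GRCm38.p6, which matched 39397 of 40838 rows with 99.5% of the counts. Every column had a sample, and 11854 rows were at 0 in every library. Exon lengths came from GENCODE M21. After filterByExpr (minimum count 10), 17438 genes were fitted with edgeR 4.0.16 (R 4.3.3; TMM, glmQLFit with robust estimation, glmQLFTest, group as the only term; two-sided, Benjamini-Hochberg over all genes tested, called at 0.05). The biological coefficient of variation was 16.9%. These steps were tested on simulated counts that held no code effect and no outlying library, so that test does not cover these features of the data. Log2 CPM for deviations and correlations used a prior count of 2, and ratios used counts plus 0.5. Differences within code pairs are values with no test.

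The 10 genes, the other lists, the tests and the naming rule were chosen with earlier results of these data known. The rule named the 10 genes, Lpcat3, up to 4 genes per other pathway list by smallest edgeR p, and the 3 genes most like Cyp7a1, Cyp8b1 and Nr0b2 with at least 10 CPM. Of the genes that the rule takes, 1 is not reported here. Alternatives were DESeq2 1.42.0, limma-voom (limma 3.58.1) with quality weights, other scalings and filters, no robust estimation, each library left out, both libraries numbered 3 left out, a block on the replicate number, and terms for the codes. Each pair of libraries within a group differed by more than sampling noise.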

Additional observations from a re-analysis of the deposited data

Results flagged for a closer look

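Among 62 groups of 4 values checked, 8 held a library far from its other 3 members by Dixon's test, which flags about 1 group in 20 by chance. Lpcat3 library 3 stood apart for Cyp2c70 at 270.4 CPM, where the other 3 Lpcat3 livers were at 153 to 165 CPM. It also stood apart for Slc27a5 at 670.3 CPM, against 436 to 459.7 CPM in the others, and for Ppargc1a at 39.7 CPM, against 18.5 to 21.9 CPM. The eGFP library 3 stood apart for Cyp7a1 at 86.6 CPM, where the other 3 eGFP livers were at 297 to 332 CPM. Its Cyp27a1 to Cyp7a1 ratio was 2.73, against 0.805 to 1.07 in the others. Sult2a8 was at 433 CPM in eGFP library 4, against 137 to 176 CPM in the other eGFP livers. Foxa2 was at 11.7 CPM in Lpcat3 library 2, against 19.5 to 20.4 CPM in the other Lpcat3 livers. Hp was at 1418 CPM in Lpcat3 library 1, against 1026 to 1072 CPM in the others. Of these values, 5 belong to the libraries numbered 3.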

How the results depend on the processing

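None of the 10 bile acid genes passed the adjusted test in any of the 20 other settings. Cyp7a1, Cyp27a1, Cyp7b1 and Nr1h4 stayed higher and Nr0b2 lower in all 20, with the lowest adjusted p of these at 0.28. With each code number as a covariate, though, Cyp7a1 was at 0.11, Cyp7b1 at 0.06 and Cyp27a1 at 0.03, against 1.03, 0.96 and 0.28 with group alone. Over all genes the test called 1, against 3 with library totals, 2 without robust estimation, 51 with DESeq2, and 0 each with no filter, with both libraries numbered 3 left out, with the code division or with each code number as a covariate. Leaving out 1 library gave 0 to 7. Nr0b2 was at -1.06 to -0.58. Baat was at -0.0019 with library totals. Without both libraries numbered 3, log2 fold changes were -0.0087 for Cyp8b1, -0.13 for Cyp2c70, -0.32 for Akr1d1, -0.054 for Baat and -0.11 for Slc27a5. The code division put Slc27a5 at -0.029. Each code number as a covariate gave -0.24 for Cyp8b1, -0.16 for Cyp2c70, -0.38 for Akr1d1, -0.024 for Baat, -0.16 for Slc27a5, -0.053 for Amacr, -0.029 for Slc27a2, -0.047 for Sult2a8, 0.039 for Osgin1 and 0.036 for Saa1. With 1 library left out, Cyp2c70 ran from -0.013 to 0.37, Akr1d1 from -0.11 to 0.47 and Slc27a5 from -0.015 to 0.32, each below 0 only without Lpcat3 library 3. The cause of these reversals was not tested. The Cyp7b1 to Cyp7a1 difference in log2 ratio ran from -0.52 to 0.28, above 0 without eGFP library 3, and that of Baat to Slc27a5 from -0.17 to 0.049. The Baat to Slc27a5 difference was 0.050 within codes 1290 and 1317 and 0.26 within codes 1344 and 1345, where the Nr0b2 to Nr1h4 difference was -1.67. Nr0b2 with Cyp7a1 had r of 0.24 after subtraction of group means and 0.14 without the 2 farthest libraries, Nr1h4 with Nr0b2 0.71 after subtraction and 0.048 with library-total CPM, and Cyp7b1 with Cyp8b1 -0.047 without the 2 farthest. Lpcat3 passed in edgeR with library totals (adjusted p = 0.0234) and without Lpcat3 library 1, and Onecut1 in those, without Lpcat3 library 2 and without robust estimation.

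Libraries of the same number did not deviate together in general (r of 0.28, -0.07, -0.40 and -0.12 for numbers 1 to 4). Pairs of different numbers ran from -0.45 to 0.47. With 4 libraries per group, these values cannot settle whether the numbers pair the samples. With the number as a block, 0 genes passed and Nr0b2 was at -0.81 (edgeR adjusted p = 0.548). Nr0b2, with 94 to 490 counts, is the gene of the 10 whose precision depth limits most.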
